A study of Homo sapiens with 8 samples.

Results

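The response of HT29 cells to CWP232228 was read from 4 of the 8 libraries of the series. These were the 2 libraries titled as CWP232228 at 1.5 µM and the 2 titled as DMSO. DMSO, the vehicle, is listed at 0.1%. HT29 is an established human colorectal adenocarcinoma cell line. The labels give 48 h for both DMSO libraries, 48 h for replicate 1 of CWP232228 and 49 h for replicate 2. The libraries are called DMSO-1, DMSO-2, CWP-1 and CWP-2 below, and 4 values are always given in that order. The other 4 libraries, from cells given ICG-001 or YB-0158, entered the model that estimates the spread between replicates. They also entered the filter on low counts, the scaling, the correction described below and the mean level used to choose named genes. Their own values are set side by side at the end. All libraries are of a single cancer line. Separate cultures for the replicates are not stated in the labels. The p-values therefore cover the spread among these libraries alone, and that spread may be technical.

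The series describes its compounds as reverse-turn peptidomimetics, a class of small molecules known for inhibitors of beta-catenin-dependent transcription. In the colon, beta-catenin with TCF factors drives the genes of crypt stem cells, and colorectal cancers commonly carry lesions that keep it active. A separate program, the integrated stress response, starts when kinases phosphorylate the translation factor eIF2alpha. Translation of most mRNAs then falls while that of the transcription factor ATF4 rises, and ATF4 switches on genes of amino acid synthesis, amino acid uptake and tRNA charging.

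Total estimated reads were 29071547 and 29779369 in the DMSO libraries and 31022125 and 30618896 in the CWP232228 libraries, the treated libraries being slightly deeper. The cells carried the markers of colon epithelium, with 13 of 13 at 1 CPM (counts scaled to the library's total) or more in all 4 libraries. The summed level of the epithelial markers was 15728.5, 18292.5, 12360 and 11733 CPM. Fibroblast, leukocyte and endothelial markers had 1 of 9, 1 of 9 and 1 of 7 at that level of 1 CPM. Their summed levels ran from 5.21 to 5.94, 2.87 to 5.09 and 2.33 to 3.13 CPM over the 4 libraries. The fibroblast sum hides opposite moves of LUM (0.765, 0.707, 2.70 and 2.97 CPM) and COL1A1 (4.21, 4.42, 2.08 and 2.58 CPM). PDGFRA, COL1A2, CD3E, CD3D, MS4A1, TYROBP and CLEC14A were at 0 in all 4. In bulk RNA, fewer cells of a type and less RNA per cell cannot be told apart. The DMSO libraries lay further apart than the CWP232228 libraries, with an SD of the log2 difference between replicates of 0.31 against 0.14 over 10181 genes. That SD was 0.13 for ICG-001 and 0.13 for YB-0158, and the model shares 1 spread per gene among all groups. A shared spread can understate that of DMSO, which can make the p-values against DMSO too small. Across genes this replicate difference tracked GC content in each group (Spearman rho 0.58 in DMSO and -0.55 in CWP232228), where genes are not independent replicates.

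Of 16449 genes tested, 3555 were higher with CWP232228 (21.6%) and 3487 lower (21.2%), which is 42.8% in all. A gene was called, and is said here to have risen or fallen, when its Benjamini-Hochberg adjusted p in edgeR's quasi-likelihood test was under 0.05. A log2 fold change of at least 1 in size was reached by 650 of the higher and 321 of the lower genes. Without CWP-1 the counts were 1920 higher and 2257 lower, and without CWP-2 they were 1235 and 1512. The libraries of the groups did not overlap for 72.8% of all tested genes, so groups that do not overlap were common. Protein-coding genes made up 3143 of the higher and 3274 of the lower genes, and long noncoding genes 237 and 132.

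The fold changes followed GC content, with a Spearman rho across genes of -0.57. Genes were put in 5 equal classes by GC content. In the class with the lowest GC content 47.6% were higher and 1.43% lower, and in the class with the highest 2.95% were higher and 52.6% lower. The median log2 fold change passed from 0.47 in the first class through 0.26, 0.04 and -0.22 to -0.41 in the last. A fit corrected for the GC content and length of each gene brought rho to -0.04 and called 2010 genes higher (12.2%) and 2551 lower (15.5%), of which 1438 and 1583 were also called without it. Whether the GC trend belongs to the libraries or to the treatment cannot be told apart in 2 against 2 libraries, so each gene group below is given with and without this correction, called corrected. Every count of a gene group is to be read beside the shares of all genes. These were 21.6% higher and 21.2% lower uncorrected, and 12.2% and 15.5% corrected. Where leaving out 1 library moved the count of a gene group by over 1.5 times, the counts without it are given too. Counts over all genes moved in those fits as well, so a move of a list count is to be read beside theirs. Calls in the same direction in the uncorrected fit, with this correction, with an offset for effective transcript length and without each of the 4 libraries in turn were kept by 531 higher and 814 lower genes.

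**Figure D1:**
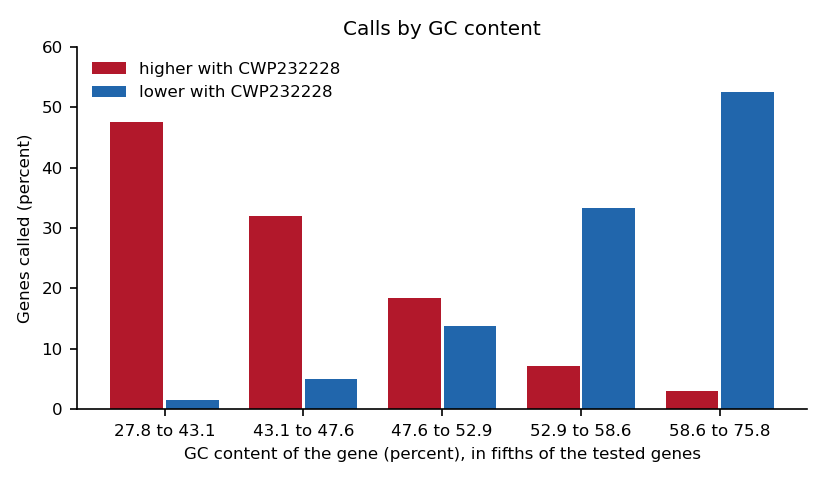
Percent of tested genes called higher (red) or lower (blue) with CWP232228, in 5 equal groups of genes by GC content on the horizontal axis. The higher share falls from 47.6% to 2.95% and the lower share climbs from 1.43% to 52.6% as GC content increases.

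The 12 largest rises were taken from called genes without overlap of the groups and with a mean log2 CPM of at least 3. That mean is over all 8 libraries, so genes low in DMSO can pass it through the treated libraries. LINC01133, which rose by 5.84 to 4.33 and 4.08 CPM, did not meet the rule. The 12 included genes of the stress response, surface receptors and mitochondrial mRNAs. SLC6A9, a glycine transporter (GRCh38 chromosome 1, 43991500 to 44031467), stood at 1.50 and 1.73 CPM in DMSO and at 19.9 and 16.7 CPM with CWP232228. Its log2 fold change was 3.50 (SE 0.14, adjusted p = 1.6e-05) and 3.77 after the correction. The chloride channel gene BEST1 (chromosome 11) went from 0.869 and 0.636 CPM to 8.69 and 6.82 CPM, and UNC5B, a netrin receptor, from 0.626 and 0.919 CPM to 7.97 and 7.01 CPM. That the groups do not overlap in any of these genes follows from the rule of choice. The corrected log2 fold changes were 3.41 for BEST1 and 3.13 for UNC5B. IL20RB, a receptor chain for interleukins of the IL-20 family, went from 2.82 and 3.25 CPM to 17.7 and 15.3 CPM (log2 fold change 2.44, SE 0.12, adjusted p = 4.1e-05). PRSS1, cationic trypsinogen, went from 3.79 and 4.81 CPM to 22.6 and 20.8 CPM (2.33, SE 0.12). Its near copy PRSS2, named after its values were seen, had 2.75, 3.68, 13.2 and 10.1 CPM in the same order, and reads shared between the pair make each level uncertain.

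Sequences with near-identical copies were also among the 12 largest rises, and their levels are uncertain. EIF4EP2, a pseudogene of the cap-binding factor EIF4E, was listed at 0 in both DMSO libraries and at 23.3 and 12.3 CPM with CWP232228, at least 169-fold higher against a floor of 3 counts per library. EIF4E itself was not called, at 83.2, 75.1, 68.6 and 85.4 CPM. MTND2P28, a nuclear copy of the mitochondrial gene MT-ND2, rose by 3.08 on the log2 scale, beside 2.50 for MT-ND2 itself.

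Genes known to respond to low oxygen were among the largest falls. NDUFA4L2, a mitochondrial protein induced in hypoxia (chromosome 12, 57234903 to 57240715), stood at 27.0 and 61.2 CPM in DMSO and at 4.78 and 2.67 CPM with CWP232228 (log2 fold change -3.56, SE 0.47, adjusted p = 0.0031). The DMSO libraries themselves differed, and without DMSO-2 the value was -2.87. NDRG1, a stress-responsive gene, fell from 134 and 205 CPM to 36.8 and 27.9 CPM, and CA9, a carbonic anhydrase, from 136 and 207 CPM to 61.0 and 53.2 CPM. SLC29A4, a monoamine transporter, fell by 1.82 on the log2 scale, from 27.7 and 47.4 CPM to 11.9 and 9.39 CPM. In NDRG1, CA9 and SLC29A4 too DMSO-2 was the higher control. Without DMSO-2 their log2 fold changes were -2.07, -1.27 and -1.395, beside -2.39, -1.585 and -1.815 with it. ALDOC, PFKFB4, CDC42EP5, NR0B2, CLIC3, SPAG4 and TRAPPC6A were also among the 12 largest falls, from -1.72 for ALDOC to -1.3 for TRAPPC6A. All 12 also stayed called lower after the correction, with CDC42EP5 at -0.70, CLIC3 at -0.75, SPAG4 at -0.85 and TRAPPC6A at -0.72.

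**Figure D2:**
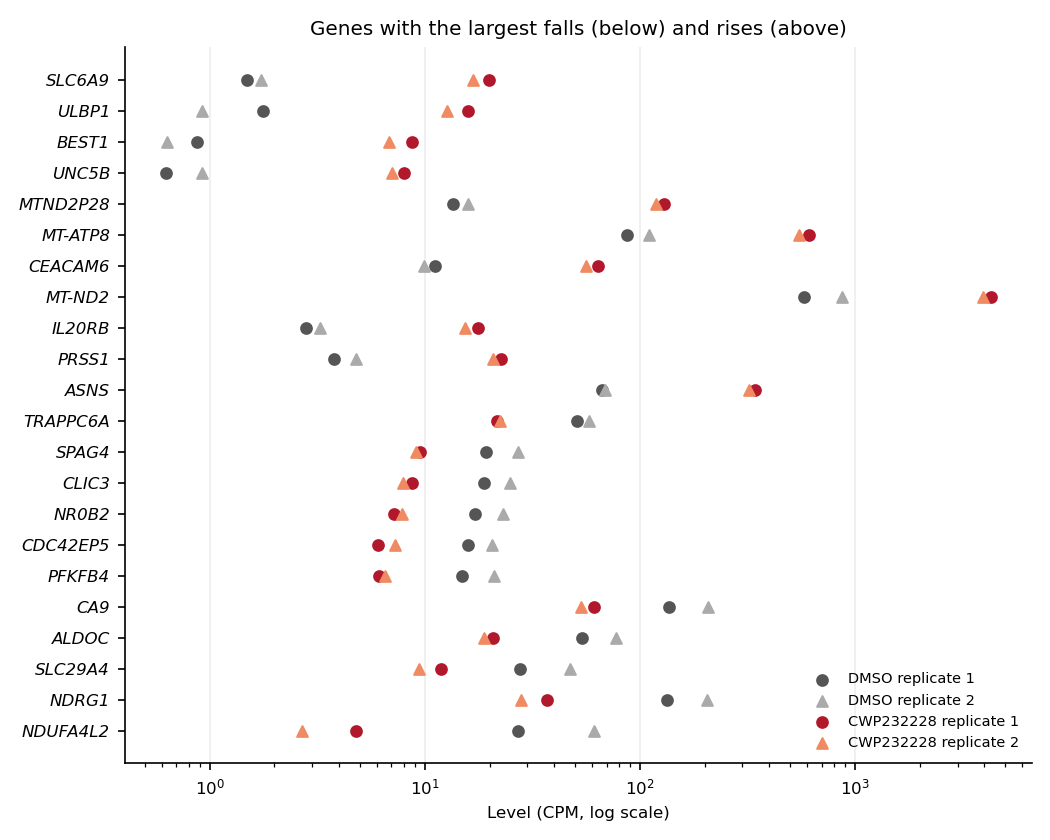
Levels in CPM (log axis) of 11 of the 12 genes with the largest rises and 11 of the 12 with the largest falls, with grey points for the DMSO libraries and red for the CWP232228 libraries. EIF4EP2, at 0 in DMSO, is left out. The genes were chosen among those without overlap of the groups, so in each row both red points lie on the same side of both grey points. The grey points are widest apart for NDUFA4L2, at 27.0 and 61.2 CPM.

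The list for ATF4 and the stress response rose in 22 of 28 tested members and fell in 0, with a median log2 fold change of 1.00 beside 0.04 over all genes. After the correction 23 rose and 0 fell, with a median of 0.97. Leaving out single libraries left 19 to 21 higher, and 1 member was called lower without DMSO-1. ASNS, asparagine synthetase, stood at 66.4 and 68.8 CPM in DMSO and at 344 and 321 CPM with CWP232228 (log2 fold change 2.30, SE 0.09, adjusted p = 1.6e-05). PSAT1, which makes serine, went from 87.6 and 75.9 CPM to 323 and 328 CPM, and PHGDH, the enzyme before it, from 70.6 and 78.4 CPM to 150 and 136 CPM. CHAC1, which degrades glutathione, went from 6.08 and 5.73 CPM to 32.6 and 25.4 CPM. The mitochondrial folate enzymes MTHFD2 and, outside the list, MTHFD1L rose by 1.20 and 1.06. In all of these genes the groups were separated by much more than the gap between replicates. They were named for the smallest p or after their values were seen, so this separation follows from the choice.

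Among the regulators of the response, ATF4 mRNA, whose product is mainly controlled at translation, was at 373, 443, 408 and 398 CPM and was not called (-0.02, SE 0.09, adjusted p = 0.88). DDIT3, the transcription factor CHOP, had 9.42 and 13.9 CPM in DMSO and 17.2 and 16.1 CPM with the compound (0.52, adjusted p = 0.031; 0.66 corrected). The pseudokinase TRIB3 rose by 0.90, the transcription factor ATF3 by 0.48 and the mTORC1 inhibitors DDIT4 and SESN2 by 0.89 and 0.74. GDF15, a secreted stress hormone, rose by 0.32 uncorrected and 0.83 corrected. The uncorrected calls of DDIT3 and ATF3 ended without DMSO-1, CWP-1 or CWP-2 (adjusted p from 0.051 to 0.13), and that of GDF15 without any single library (0.051 to 0.21). FGF21, another such hormone, was at 0 in both DMSO libraries and at 0.260 and 0.228 CPM with CWP232228, at least 2.32-fold higher, and the list median with FGF21 at this bound was 1.00. PPP1R15A, the phosphatase subunit that ends the response, was not called (-0.28, adjusted p = 0.059), except without DMSO-1 (-0.38).

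Among the eIF2alpha kinases and their phosphatase, 5 of 13 members rose and 1 fell, against 1 and 3 after the correction. Without CWP-1 the counts were 2 and 1, without CWP-2 they were 0 and 1 and without DMSO-1 they were 6 and 2. EIF2AK2, the kinase PKR, was at 62.8 and 41.5 CPM in DMSO and at 83.2 and 94.3 CPM with CWP232228, a rise of 0.77 that was 0.14 and not called after the correction. IMPACT, an inhibitor of the kinase GCN2, rose by 0.75 (0.22 and not called when corrected), and PPP1CA, a phosphatase catalytic subunit, fell by 0.52 (-0.12 and not called when corrected). The calls of EIF2AK2 and IMPACT ended without CWP-2, at adjusted p = 0.092 and 0.057. The activity of these kinases was not measured.

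Amino acid transporters rose in 10 of 16 members and fell in 2, with a median of 0.71, and in 10 and 1 after the correction or without CWP-2. SLC7A11, the cystine importer, stood at 46.0 and 25.5 CPM in DMSO and 147 and 159 CPM with CWP232228 (log2 fold change 2.10, SE 0.25), but at 1.10 when corrected. SLC1A4, which carries serine and alanine, went from 15.5 and 19.3 CPM to 77.0 and 64.8 CPM. The heterodimer of SLC7A5 and SLC3A2, which imports leucine, rose in both chains, by 1.54 for SLC7A5 (237, 232, 742 and 619 CPM) and 0.89 for SLC3A2 (172, 186, 341 and 320 CPM). The glutamine transporter SLC1A5 rose by 0.40 (0.67 corrected), while SLC6A6, the taurine transporter, and SLC43A2 fell by 0.58 and 0.44. SLC43A2 was not called when corrected (-0.14) or without CWP-2 (adjusted p = 0.095).

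Aminoacyl-tRNA synthetases, which charge tRNAs, rose in 14 of 20 members and fell in 3 (median 0.45), in 12 and 1 after the correction, and in 13 and 5 without DMSO-1. WARS1 went from 100 and 97.5 CPM to 211 and 203 CPM (1.07, SE 0.06, adjusted p = 8.3e-05), IARS1 from 250 and 222 CPM to 522 and 494 CPM, and EPRS1 from 206 and 196 CPM to 439 and 426 CPM. The corrected log2 fold changes of IARS1 and EPRS1 were 0.72 and 0.53. The members that fell were QARS1 (-0.62), FARSA (-0.54) and VARS1 (-0.35), and of these 3 only QARS1 was called after the correction (-0.47, beside -0.19 and -0.06). The call of VARS1 ended without CWP-2 (adjusted p = 0.066). GARS1 rose by 1.33, but its summed reads are 0.44 of the mean in the authors' deposited table.

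**Figure D3:**
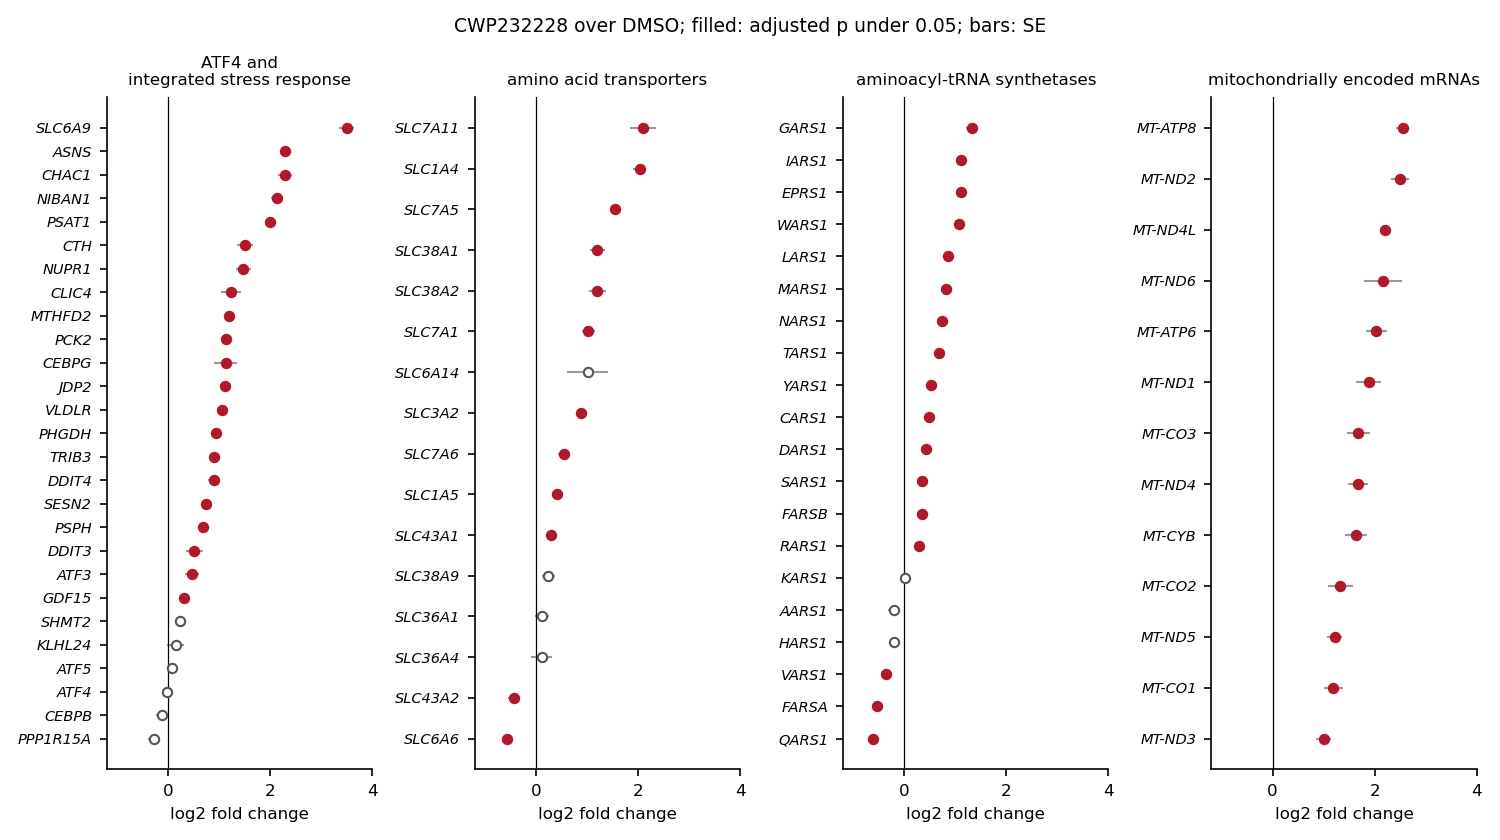
Log2 fold change of CWP232228 over DMSO with its SE for members of 4 gene lists, with filled points for an adjusted p under 0.05 and open points for the rest. FGF21, at 0 in DMSO, is left out. SLC6A9 stands at 3.50 and ATF4 at -0.02 in the left panel, and all 13 mitochondrial mRNAs in the right panel lie between 1.00 and 2.55.

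The element through which ATF4 and its C/EBP partners bind DNA, known as the CARE, was searched as TGATGNAA on both strands in the promoters of the genes that moved together. RefSeq promoter windows (GRCh38.p14, 250 bases before to 50 after the start) were matched for 11362 of the tested genes. The 5 promoters printed here carry the element in genes of amino acid synthesis, degradation of glutathione, tRNA charging and amino acid uptake, and in IL20RB, which was among the 12 largest rises and in none of the lists. They lie at chr7:97872359-97872658 (minus strand) for ASNS, chr15:40953221-40953520 (plus) for CHAC1, chr9:92293648-92293947 (minus) for IARS1, chr12:46266467-46266766 (minus) for SLC38A1 and chr3:136957733-136958032 (plus) for IL20RB. Each is given 5′ to 3′ on the gene's strand, with the matching bases in capitals.
ASNS: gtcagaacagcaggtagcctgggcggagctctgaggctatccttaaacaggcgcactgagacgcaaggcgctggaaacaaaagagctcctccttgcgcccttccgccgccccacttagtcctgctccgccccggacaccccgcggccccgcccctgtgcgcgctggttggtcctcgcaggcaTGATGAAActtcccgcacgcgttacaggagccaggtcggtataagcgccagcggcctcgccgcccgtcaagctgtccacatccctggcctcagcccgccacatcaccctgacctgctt
CHAC1: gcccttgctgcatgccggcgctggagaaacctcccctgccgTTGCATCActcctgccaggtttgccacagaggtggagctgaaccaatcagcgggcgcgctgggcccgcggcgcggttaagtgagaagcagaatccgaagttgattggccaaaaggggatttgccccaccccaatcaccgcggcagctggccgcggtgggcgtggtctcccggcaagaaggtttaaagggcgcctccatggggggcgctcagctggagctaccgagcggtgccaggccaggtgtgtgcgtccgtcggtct
IARS1: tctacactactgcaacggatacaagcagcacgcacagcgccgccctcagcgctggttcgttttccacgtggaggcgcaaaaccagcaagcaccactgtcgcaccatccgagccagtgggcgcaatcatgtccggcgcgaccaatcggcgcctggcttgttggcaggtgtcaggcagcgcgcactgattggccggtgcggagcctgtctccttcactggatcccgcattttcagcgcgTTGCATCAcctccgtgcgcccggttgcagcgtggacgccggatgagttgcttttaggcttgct
SLC38A1: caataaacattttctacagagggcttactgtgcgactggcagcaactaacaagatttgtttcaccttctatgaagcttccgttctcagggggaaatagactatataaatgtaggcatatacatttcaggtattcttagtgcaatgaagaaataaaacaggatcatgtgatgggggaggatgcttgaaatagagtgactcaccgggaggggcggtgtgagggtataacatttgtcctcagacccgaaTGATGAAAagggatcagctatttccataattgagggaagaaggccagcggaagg
IL20RB: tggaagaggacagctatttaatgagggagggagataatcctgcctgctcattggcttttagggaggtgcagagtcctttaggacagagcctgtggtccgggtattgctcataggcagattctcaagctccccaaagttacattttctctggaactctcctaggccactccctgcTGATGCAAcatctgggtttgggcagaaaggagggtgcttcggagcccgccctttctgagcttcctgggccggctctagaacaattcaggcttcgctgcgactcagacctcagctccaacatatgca

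Counted from the annotated start, the match begins at base -68 in ASNS, -209 in CHAC1, -13 in IARS1, -4 in SLC38A1 and -76 in IL20RB, and in CHAC1 and IARS1 it reads as the reverse complement TTGCATCA. The element was present in 4 of 25 promoters of the ATF4 list, 3 of 14 of the transporters and 6 of 16 of the synthetases, beside 1.77% of the tested genes and 3.67% of all 27305 promoters in the table. AARS1, a synthetase with the element at -187, was not called (-0.21), except without DMSO-1 (-0.38). Among genes called higher with a log2 fold change of at least 1, 24 of 369 promoters held it (6.5%), and among those called lower by at least 1, 0 of 184 did. Over all called genes the shares were smaller, 75 of 2668 higher (2.81%) and 33 of 2746 lower (1.2%). These shares were counted in the uncorrected fit only. Calls in that fit followed GC content, and the shares were not matched for it. Some of the 24 were near the floor, such as LPO at 0, 0, 0.163 and 0.0652 CPM. HPX, also among them, had 0.139, 0.106, 0.456 and 0.489 CPM. Among the 24, C4BPA, LINC01091, OTOGL, SYNE1 and TMEM154 were not called when corrected (adjusted p from 0.062 to 0.43). The 24 included PRSS1, PRSS2, MTHFD1L and GPX8, an endoplasmic reticulum peroxidase that went from 4.55 and 4.31 CPM to 19.1 and 23.2 CPM. They also included the long noncoding RNA LINC01133. A match is a description of the letters in the window and shows no binding.

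The 13 mRNAs encoded in the mitochondrial genome all rose, with a median log2 fold change of 1.68, and 13 of 13 were called in the corrected fit and without each library. They took 0.919% and 1.43% of the estimated reads in DMSO and 3.95% and 3.68% with CWP232228. MT-ND2, part of complex I, stood at 583 and 867 CPM in DMSO and 4280 and 3943 CPM with the compound (2.50, SE 0.17). MT-ATP8 went from 87.5 and 110 CPM to 608 and 551 CPM, and MT-ND4L from 118 and 126 CPM to 584 and 539 CPM. The smallest rises were those of MT-ND3, at 1.00, and MT-CO1, at 1.19. In all 13 DMSO-2 was the higher control, and both treated libraries stood above it.

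Of 38 nuclear oxidative phosphorylation genes 0 rose and 30 fell (median -0.47), and 0 and 23 after the correction, where the median was -0.21, while without DMSO-1 1 rose and 34 fell. NDUFB7, of complex I, stood at 55.8 and 58.8 CPM in DMSO and 28.4 and 25.7 CPM with CWP232228 (-1.08, SE 0.10, adjusted p = 5.2e-04), and ATP5F1D, of ATP synthase, at 104, 115, 52.6 and 55.2 CPM (-1.03). NDUFB10 fell by 0.69, and these members shrank to -0.42, -0.34 and -0.19 when corrected. Mitochondrial ribosomal proteins fell in 20 of 31 and rose in 0, against 22 and 0 corrected and 24 and 1 without DMSO-1, with MRPL12 at -0.84, MRPS26 at -0.77 and MRPS34 at -0.77. These members stood at -0.29, -0.26 and -0.23 when corrected.

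Genes that copy and transcribe mitochondrial DNA showed no common direction, with 5 of 17 higher and 2 lower, and 2 and 5 after the correction. The counts were 5 and 1 without DMSO-1, 3 and 1 without CWP-1 and 3 and 2 without CWP-2. POLRMT, the mitochondrial RNA polymerase, fell from 75.6 and 75.7 CPM to 48.3 and 45.7 CPM (-0.69, SE 0.08; -0.30 corrected), but was not called with the offset for effective length (-0.49, adjusted p = 0.17). LRPPRC, which stabilises mitochondrial mRNAs, rose from 214 and 173 CPM to 316 and 312 CPM, a change of 0.70 that was 0.19 and not called when corrected. FASTKD2, another RNA-binding protein of mitochondria, likewise stood at 0.68 and at 0.16 when corrected.

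Of 53 cytosolic ribosomal protein genes 49 fell and 0 rose (median -0.57). After the correction 30 fell and the median was -0.24, and without CWP-1 or CWP-2 32 and 33 fell. RPL28 stood at 1157 and 1365 CPM in DMSO and 693 and 670 CPM with CWP232228 (-0.89, SE 0.10), RPS15 at 506, 595, 309 and 298 CPM and RPL36 at 411, 491, 245 and 250 CPM. These genes were named for the smallest p of the list, and their corrected values were -0.37, -0.24 and -0.26.

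Translation factors were mixed, with 9 of 41 higher and 15 lower (4 and 7 corrected, 4 and 8 without CWP-1, 4 and 6 without CWP-2). The higher share was near that of all genes, 21.6% uncorrected and 12.2% corrected. Of all genes 21.2% were lower, and 15.5% corrected. EEF2, the elongation factor that moves the ribosome, fell from 3581 and 3859 CPM to 2220 and 2062 CPM, and the initiation factor subunit EIF3G from 132 and 155 CPM to 75.8 and 71.4 CPM, with corrected log2 fold changes of -0.42 and -0.46. EIF4EBP1, which blocks the cap-binding factor, rose from 19.2 and 21.8 CPM to 36.8 and 31.3 CPM (0.73, and 1.31 corrected). Of 30 nucleolar and RNA polymerase I genes 8 rose and 11 fell, and 2 and 8 after the correction, 5 and 4 without CWP-1 and 3 and 1 without CWP-2. NHP2, of the snoRNP that modifies ribosomal RNA, fell by 0.67 (-0.23 corrected). POLR1A and RRN3, of the polymerase I machinery, rose by 0.54 and 0.67 but were not called when corrected (0.17 and 0.18), and POLR1A turned to -0.02 with the offset for effective length.

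Of 26 cholesterol genes 18 fell and 0 rose, with a median of -0.47, and the correction gave 22 lower and 0 higher with a median of -0.46. Leaving out single libraries gave 13 to 19 lower, and without DMSO-1 3 members were called higher. FDPS, farnesyl diphosphate synthase, stood at 215 and 253 CPM in DMSO and 121 and 125 CPM with CWP232228 (-0.92, SE 0.09, adjusted p = 5.1e-04). TM7SF2, a sterol reductase, had 93.4, 101, 55.9 and 51.4 CPM in the same order, and DHCR7, the last enzyme of a branch of the pathway, 331, 351, 213 and 190 CPM. The corrected log2 fold changes were -0.69 for FDPS, -0.38 for TM7SF2 and -0.53 for DHCR7. INSIG1, the sterol-regulated brake on the pathway, fell by 0.81. Among fatty acid genes 1 of 13 rose and 5 fell (0 and 6 corrected, 3 and 5 without DMSO-1, 1 and 2 with the offset for effective length). The acetyl-CoA synthetase ACSS2 stood at -0.83, the regulator SREBF1 at -0.65 and fatty acid synthase FASN at -0.59, and at -0.70, -0.29 and -0.35 when corrected. With the offset for effective length ACSS2 was at -0.16 and FASN at -0.69, neither called (adjusted p = 0.81 and 0.074), and SREBF1 was called at -0.29.

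Of 22 glycolysis genes 20 fell and 2 rose (16 and 0 corrected), with a median of -0.48, and 12 fell and 1 rose without CWP-2. Without DMSO-2 or CWP-1, 1 rose. ALDOC, an aldolase, stood at 53.8 and 77.4 CPM in DMSO and 20.8 and 18.9 CPM with CWP232228 (-1.72, SE 0.17). SLC16A3, which exports lactate, had 112, 136, 66.2 and 61.9 CPM, and TPI1, triose phosphate isomerase, 932, 1078, 632 and 572 CPM, with corrected log2 fold changes of -0.49 and -0.42. Of 18 hypoxia-responsive genes 10 fell and 3 rose, and 11 and 2 after the correction, where the median went from -0.39 to -0.64. Without CWP-2 5 hypoxia genes fell and 2 rose, and without CWP-1 8 fell and 1 rose. VEGFA, the angiogenic growth factor, rose instead, from 83.6 and 90.4 CPM to 161 and 150 CPM (0.84, SE 0.08, adjusted p = 5.1e-04; 0.81 corrected). HIF1A mRNA rose by 0.71 and by 0.26 when corrected, and missed the threshold without CWP-1 (adjusted p = 0.0504).

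Targets of Wnt/beta-catenin signalling split, with 3 of 21 higher and 7 lower (5 and 7 corrected, 5 and 9 without DMSO-1, 1 and 3 without CWP-2). Of all genes 21.6% were higher and 21.2% lower, and 12.2% and 15.5% corrected. NOTUM, a secreted Wnt inhibitor, stood at 2.12 and 2.44 CPM in DMSO and at 0.618 and 0.620 CPM with CWP232228 (-1.88, SE 0.26). SP5, a transcription factor of the pathway, fell from 19.2 and 19.0 CPM to 8.92 and 9.69 CPM (-1.03, SE 0.11, adjusted p = 8.0e-04; -0.58 corrected). AXIN2, the feedback scaffold commonly used as a readout of the pathway, rose, from 65.2 and 57.7 CPM to 91.7 and 86.5 CPM (0.54, SE 0.08, adjusted p = 0.0021; 0.54 corrected). With the offset for effective length AXIN2 was at 0.26 and not called (adjusted p = 0.063). MYC had 249 and 237 CPM in DMSO and 203 and 176 CPM with the compound (-0.36, adjusted p = 0.015), and was not called without CWP-2 (-0.25, adjusted p = 0.13). LGR5, a crypt stem cell receptor, had 9.07, 7.88, 9.11 and 8.41 CPM and was not called (0.05, SE 0.13), but was called lower at -0.44 after the correction.

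CTNNB1, which encodes beta-catenin itself, was at 229, 210, 242 and 242 CPM and was not called (0.14, adjusted p = 0.13), except without DMSO-1 (0.21, adjusted p = 0.016), and its corrected value was -0.17. Among 24 genes of the beta-catenin complex and its coactivators 6 rose and 6 fell, shares near the 21.6% and 21.2% of all genes. Corrected, 6 rose and 4 fell, beside 12.2% and 15.5% of all genes. The uncorrected counts were 2 and 6 without CWP-1 and 1 and 2 without CWP-2. DVL2, which relays the Wnt signal, fell by 0.55 (-0.29 corrected), CTNNBIP1, an inhibitor of beta-catenin, by 0.50 (-0.23 corrected), and DVL1 by 0.35, the last turning to 0.04 when corrected and missing the threshold without CWP-2 (adjusted p = 0.065). CREBBP, the coactivator that ICG-001 is known to bind, went from 75.9 and 62.0 CPM to 97.9 and 90.8 CPM (0.45, SE 0.11, adjusted p = 0.012; 0.23 corrected). Its call ended without CWP-1 or CWP-2, at adjusted p = 0.077 and 0.053. KHDRBS1, the RNA-binding protein SAM68, was at 246, 216, 232 and 246 CPM (0.04, SE 0.08, adjusted p = 0.69; -0.14 corrected).

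In the list of stem cell markers 7 of 15 rose and 1 fell, against 5 and 2 after the correction, 4 and 1 without CWP-2 and 2 and 0 with the offset for effective length. ALDH1A3, an aldehyde dehydrogenase, went from 10.4 and 8.03 CPM to 19.4 and 20.7 CPM (1.12, SE 0.14; 1.14 corrected), and the transcription factor KLF4 from 11.4 and 10.4 CPM to 18.7 and 16.7 CPM. PROM1, the surface marker CD133, had 144, 124, 196 and 182 CPM, a rise of 0.50 that was 0.19 and not called when corrected. The integrin ITGB1 rose by 0.71 (0.17 corrected). With the offset for effective length PROM1 (0.22, adjusted p = 0.53), ALDH1A3 (1.10, adjusted p = 0.054) and ITGB1 (0.57, adjusted p = 0.051) were not called. CD44, an adhesion receptor, was not called, at 776, 730, 770 and 759 CPM (0.02, SE 0.07; -0.10 corrected).

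Cell cycle genes differed between the fits. Of the mitosis list (G2/M genes) 15 of 43 rose and 15 fell (median 0.05), whereas after the correction 1 rose and 20 fell (median -0.21). Without DMSO-2 8 rose and 15 fell, without CWP-1 8 and 5, and without CWP-2 4 and 5. MKI67, the proliferation marker, stood at 282 and 245 CPM in DMSO and 427 and 422 CPM with CWP232228 (0.69, SE 0.09, adjusted p = 0.0011), but at -0.06 when corrected (adjusted p = 0.75). The kinetochore gene CENPF rose by 0.78 and by 0.09 when corrected, the latter not called. UBE2C, which tags mitotic proteins for destruction, fell in both fits, from 140 and 151 CPM to 96.1 and 100 CPM (-0.57; -0.30 corrected). BIRC5, the apoptosis inhibitor survivin, did the same, from 105 and 108 CPM to 72.1 and 72.5 CPM (-0.56, SE 0.08; -0.55 corrected).

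Of the DNA replication list (G1/S genes) 7 of 42 rose and 12 fell (4 and 10 corrected), and 2 and 3 rose without CWP-1 or CWP-2. Thymidine kinase TK1 fell from 237 and 254 CPM to 157 and 146 CPM (-0.70; -0.29 corrected), the DNA glycosylase UNG from 148 and 147 CPM to 98.1 and 98.9 CPM (-0.58; -0.63 corrected), and DNA ligase LIG1 by 0.50 (-0.20 corrected). Among G1 cyclins and CDK inhibitors 4 of 21 rose and 5 fell (2 and 3 corrected), shares near those of all genes in the uncorrected fit. The higher and lower counts of that list were 7 and 4 without DMSO-1, 2 and 4 without DMSO-2, 1 and 3 without CWP-1 and 0 and 5 without CWP-2. BTG2, an antiproliferative gene, fell from 71.9 and 72.3 CPM to 40.8 and 37.6 CPM (-0.88; -0.97 corrected). CDKN2A and CDK4 fell by 0.58 and 0.38, and neither was called when corrected (-0.10 and -0.04). Of 12 replication-dependent histone genes, whose mRNAs mostly lack a poly(A) tail, 1 rose and 6 fell (1 and 4 corrected). H2AX and H2BC12 fell by 0.59 and 0.75 (-0.08 and -0.14, not called, when corrected).

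Of 27 genes of the BCL2 family and death receptors 10 fell and 6 rose (8 and 4 corrected, 8 and 3 without CWP-1, 6 and 1 without CWP-2). The proapoptotic genes BAD, BOK and BAK1 fell by 0.90, 0.65 and 0.55, with BAD at 53.3, 58.1, 29.8 and 29.9 CPM. Their corrected values were -0.29, -0.24 and -0.32, and BOK turned to 0.44 and was not called with the offset for effective length.

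Of 31 surface and differentiation genes of the intestine 6 rose and 12 fell, beside 21.6% and 21.2% of all genes. The counts were 7 and 8 corrected, beside 12.2% and 15.5% of all genes, 5 and 7 without CWP-1 and 5 and 3 without CWP-2. CEACAM6, an adhesion molecule of the carcinoembryonic antigen family (chromosome 19, 41750977 to 41772208), stood at 11.2 and 9.97 CPM in DMSO and 63.8 and 56.3 CPM with CWP232228 (2.50, SE 0.11, adjusted p = 2.6e-05; 2.28 corrected). Its relative CEACAM5 went from 4.59 and 4.17 CPM to 18.4 and 15.2 CPM (1.94), and the cadherin CDH17 from 1.50 and 1.49 CPM to 3.71 and 3.62 CPM (1.3). FABP1, a fatty acid carrier of enterocytes, fell from 11.8 and 28.1 CPM to 3.78 and 2.97 CPM (-2.56), or -1.82 without DMSO-2, and was not called without CWP-2 (adjusted p = 0.056). CEACAM5 and CEACAM6 are close in sequence, so reads may be divided between them.

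Among keratins and junction genes 10 of 28 rose and 7 fell (7 and 5 corrected, 4 and 7 without CWP-1, 5 and 5 without CWP-2). SCEL, sciellin of the cornified envelope, went from 8.90 and 8.24 CPM to 26.9 and 27.1 CPM (1.65, SE 0.10; 1.10 corrected), and CLDN1, a tight junction claudin, from 30.5 and 24.8 CPM to 60.3 and 59.8 CPM (1.12; 0.61 corrected). KRT19, a keratin of simple epithelia, fell from 863 and 1058 CPM to 527 and 496 CPM (-0.91; -0.47 corrected).

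ULBP1, a stress-induced ligand that natural killer cells sense through NKG2D, was among the largest rises, from 1.77 and 0.919 CPM to 15.9 and 12.7 CPM (3.40, SE 0.23, adjusted p = 1.8e-04; 2.94 corrected). Over the list of MHC class I and NKG2D ligand genes 6 of 25 rose and 9 fell (4 and 5 corrected, 3 and 6 without CWP-2). Calreticulin CALR, a chaperone of class I loading, fell from 693 and 803 CPM to 475 and 468 CPM, and HLA-B from 38.3 and 39.2 CPM to 23.5 and 24.4 CPM, the latter at -0.12 and not called when corrected.

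In the EGF receptor family with its ligands 7 of 12 members rose and 2 fell (6 and 1 corrected, 8 and 1 without DMSO-1, 7 and 1 without CWP-1, 5 and 0 without CWP-2). Betacellulin BTC went from 2.92 and 2.76 CPM to 6.18 and 6.98 CPM (1.21, SE 0.15; 0.73 corrected) and amphiregulin AREG from 85.6 and 87.1 CPM to 148 and 130 CPM (0.69; 0.56 corrected). ERRFI1, a feedback inhibitor of the receptor, rose by 0.63 (0.24 corrected). Of 24 immediate early and ERK feedback genes 10 fell and 6 rose (7 and 2 corrected, 7 and 1 without CWP-1, 4 and 1 without CWP-2). JUNB stood at 141 and 137 CPM in DMSO and 70.5 and 66.4 CPM with the compound (-1.02, SE 0.08; -0.58 corrected), IER2 fell by 0.79 (-0.43 corrected), and JUND fell by 0.48 but turned to 0.11 when corrected. Of 17 YAP/TEAD targets 7 rose and 1 fell (3 and 1 corrected, 4 and 0 without CWP-2), with MYOF at 1.06 (0.50 corrected), AJUBA at 0.58 and NT5E at 0.57, the last at 0.17 and not called when corrected.

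Protein quality control genes had no common direction. Of 24 endoplasmic reticulum genes 8 rose and 6 fell (5 and 8 corrected, 5 and 5 without CWP-1, 3 and 3 without CWP-2). ATF6, a sensor of unfolded proteins, rose by 0.72 (0.04 and not called when corrected), and PDIA4, a disulfide isomerase, fell by 0.80, with summed reads at 0.39 of the authors' deposited mean. HSPA5, the chaperone BiP, was at 577, 615, 598 and 613 CPM and not called, and was lower at -0.41 when corrected. Among cytosolic heat shock proteins 5 of 22 rose and 8 fell (2 and 7 corrected, 5 and 5 without CWP-1, 2 and 3 without CWP-2). HSPH1 went from 212 and 189 CPM to 414 and 398 CPM (1.02, SE 0.10; 0.56 corrected), while the inducible HSPA1A and the small HSPB1 fell by 0.55 and 0.89 (-0.32 and -0.33 corrected).

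Of 30 proteasome genes 14 fell and 3 rose (11 and 0 corrected, 9 and 0 without CWP-1, 4 and 1 without CWP-2). PSMC3 fell by 0.67, PSMD4 by 0.57 and PSMB3 by 0.45, the last not called without CWP-2 (adjusted p = 0.051). Corrected, PSMC3 was at -0.41 and PSMD4 at -0.30, and PSMB3 was at -0.15 and not called. Lysosome and autophagy genes had 16 of 32 lower and 5 higher (11 and 1 corrected, 14 and 3 without DMSO-2, 10 and 3 without CWP-1, 3 and 1 without CWP-2). WIPI2 and GABARAPL2, of autophagosome formation, fell by 0.45 each, and MAP1LC3B, of the same process, rose by 0.44, the latter at 0.24 and not called when corrected. NRF2 and glutathione genes had 12 of 29 lower and 7 higher (4 and 3 corrected, 6 and 5 without CWP-2), with transketolase TKT at -0.74 (-0.35 corrected) and GPX4, which reduces lipid peroxides, at -0.67 (-0.13 and not called when corrected).

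TXNIP, a glucose-sensed brake on glucose uptake, fell from 191 and 188 CPM to 122 and 117 CPM (-0.66; -1.02 corrected), while its relative ARRDC3 rose by 1.19 (0.75 corrected). In that list 1 of 9 rose and 4 fell (1 and 5 corrected), while 3 rose without DMSO-1 and 2, 1 and 1 fell without DMSO-2, CWP-1 or CWP-2. MXD4, a MAX partner that opposes MYC, fell by 0.88 (-0.58 corrected), and MGA and MXD1 rose by 0.97 and 0.64 (0.10 and 0.17, not called, when corrected), in a network with 3 of 12 higher and 4 lower (0 and 3 corrected, 2 and 2 without CWP-2). Polyamine genes rose in 3 of 12 and fell in 4 (3 and 3 corrected, 1 and 4 without CWP-2), with ornithine decarboxylase ODC1 at 0.40 (0.24 corrected) and its antizymes OAZ2 and OAZ1 at -0.57 and -0.44. Corrected, OAZ2 was at -0.19, and OAZ1 was at -0.07 and not called. Metallothionein genes rose in 1 of 8 and fell in 2 (0 and 1 corrected, 3 and 1 without DMSO-1, 0 and 1 without any other library). The snoRNA host genes rose in 2 of 17 and fell in 1 (4 and 1 corrected), with 1 and 6 without DMSO-1, 4 and 1 without DMSO-2, 2 and 0 without CWP-1 and 1 and 0 without CWP-2. SNHG4 rose by 0.47 and MT1E fell by 0.54 (-0.26 corrected). The calls of SLC39A10 (0.65), MT1X (-0.45), SNHG8 (-0.55), TAF1D (0.30) and MLX (-0.29) ended without CWP-2, at adjusted p from 0.082 to 0.28. They also ended without any other single library for MT1X, without DMSO-2 or CWP-1 for SLC39A10, without DMSO-1 or DMSO-2 for TAF1D and without CWP-1 for SNHG8 and MLX. Corrected, SLC39A10 (0.20), MT1X (-0.15) and TAF1D (-0.02) were not called, and SNHG8 (-0.38) and MLX (-0.22) were.

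Interferon-stimulated genes rose in 10 of 23 and fell in 3 (6 and 0 corrected), with 6 and 2 without CWP-1 and 4 and 1 without CWP-2. IFIT2 went from 4.87 and 5.66 CPM to 10.0 and 10.4 CPM (0.96) and IFIT3 rose by 0.54, neither called when corrected (0.43 and 0.18), and ISG15 fell by 0.77 (-0.15 and not called when corrected). Of 20 NF-kB feedback genes 3 rose and 3 fell (3 and 1 corrected, 1 and 1 without either CWP232228 library). BIRC3, an inhibitor of apoptosis, went from 2.57 and 1.77 CPM to 5.14 and 6.0 CPM (1.36, SE 0.23; 1.15 corrected), and NFKBIE fell by 0.64 (-0.36 corrected). RELB fell by 0.53, was at -0.11 and not called when corrected (adjusted p = 0.44), and was not called without CWP-1 or CWP-2 (adjusted p = 0.051 and 0.081).

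Splicing regulators rose in 18 of 39 and fell in 3, with 9 and 6 after the correction, 21 and 6 without DMSO-1, 15 and 5 without DMSO-2, 9 and 2 without CWP-1 and 3 and 1 without CWP-2. HNRNPH1 went from 291 and 264 CPM to 413 and 446 CPM (0.63; 0.72 corrected) and RBM39 from 237 and 234 CPM to 310 and 317 CPM (0.42; 0.27 corrected). U2AF2, which marks the 3′ splice site, fell from 485 and 483 CPM to 341 and 317 CPM (-0.56; -0.19 corrected). The share of each gene's reads taken by its transcripts was tested in 11611 genes, of which 399 were called (3.44%), and in 238 of them a transcript's share shifted by 10 percentage points or more. Without DMSO-1 678 genes were called and without CWP-1 240, and 88 of the 399 were called without each. In SIN3A, a corepressor scaffold, the transcript SIN3A-203 took 0% in both DMSO libraries and 20.2% and 45.3% with CWP232228. In CD276, an immune checkpoint molecule, CD276-202 took 41.5% and 37.1% in DMSO and 0% with the compound, and in NDUFV1, of complex I, NDUFV1-201 took 25.6%, 41.1%, 0% and 0%. KTN1, BAG6 and RPL21 completed the genes with the smallest p. Shares of exactly 0 come from Salmon's model, which divides reads that fit several transcripts and whose uncertainty is not in the test. CD44, known for splice variants under control of SAM68, was called (adjusted p = 4.0e-04), but its largest shift was 1.86 percentage points, and KHDRBS1 was not called. CTNNB1 was called too (adjusted p = 0.005), with a largest shift of 11.9 percentage points.

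**Figure D4:**
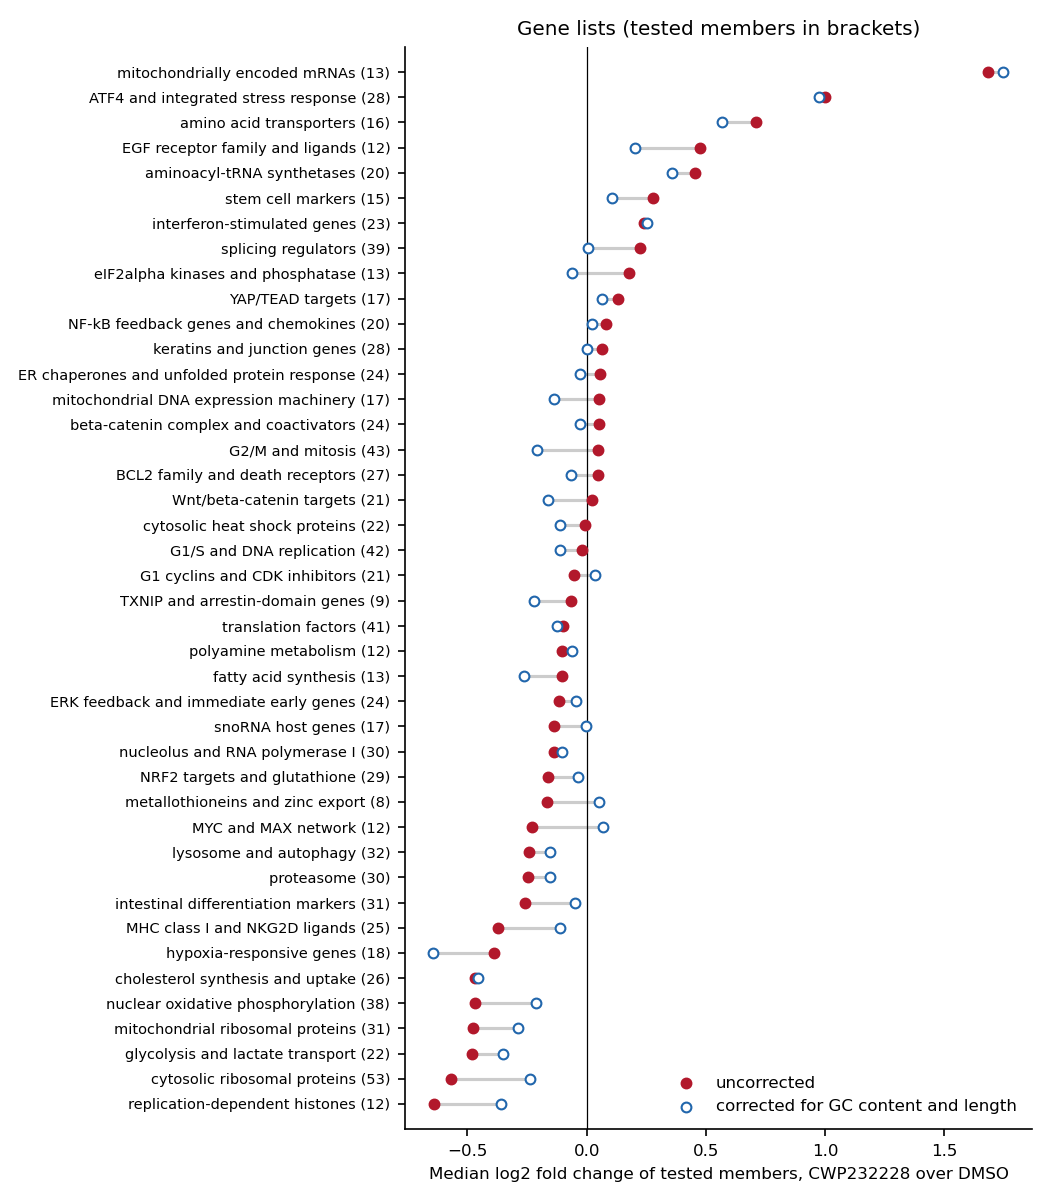
Median log2 fold change over the tested members of each of 42 gene lists, uncorrected (red) and corrected (open blue), joined by a line. The mitochondrially encoded mRNAs stand at the top, at 1.68 uncorrected, and the ATF4 list hardly moves between fits (1.00 and 0.97), while the ribosomal proteins go from -0.57 to -0.24 and the G2/M list from 0.05 to -0.21.

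The offset for effective transcript length called fewer genes, 1453 higher and 1945 lower beside 3555 and 3487 uncorrected. It also moved several list counts by over 1.5 times. The list counts that follow are to be read beside these smaller counts over all genes. The ATF4 list kept 20 higher and 0 lower, the mitochondrially encoded mRNAs 13 and 0, the ribosomal proteins 0 and 44 and the cholesterol genes 0 and 14. Splicing regulators went to 6 higher and 6 lower, the G2/M list to 5 and 7, the G1/S list to 2 and 8 and the nucleolar genes to 4 and 4. Transporters had 8 and 0, synthetases 11 and 1, the eIF2alpha kinases 2 and 1, translation factors 5 and 10 and genes for mitochondrial DNA 2 and 0. Wnt targets had 1 and 4, the beta-catenin complex 4 and 3, G1 cyclins with CDK inhibitors 0 and 3, the BCL2 family 2 and 4 and glycolysis genes 1 and 16. Intestinal markers had 5 and 6, keratins with junction genes 6 and 6, the MHC class I list 3 and 7, the EGF receptor family 5 and 0, the immediate early genes 1 and 6 and YAP/TEAD targets 4 and 0. Endoplasmic reticulum genes had 4 and 4, heat shock proteins 3 and 4, the proteasome 0 and 11, lysosome and autophagy genes 1 and 6, polyamine genes 3 and 2 and the TXNIP list 1 and 1. Interferon-stimulated genes had 5 and 2 and NF-kB feedback genes 1 and 1, while metallothioneins and snoRNA host genes had 0 and 0. Besides the genes for which this is given above, the calls of DDIT3, ATF3, SLC1A5, SLC6A6, SLC43A2, QARS1, VARS1, HIF1A, CTNNBIP1, DVL1, MKI67, CENPF, LIG1, HLA-B, SNHG4, MT1E, SLC39A10, MT1X, SNHG8, TAF1D, MLX and NFKBIE ended with this offset, at adjusted p from 0.0504 for SNHG4 to 0.85 for SLC6A6.

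Among the lists whose medians are not given above, the median log2 fold change ranged from -0.64 for the replication-dependent histones to 0.47 for the EGF receptor family, beside 0.04 over all genes. Corrected, these medians ranged from -0.36 for the histones to 0.25 for the interferon-stimulated genes, beside -0.03 over all genes.

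The other compounds of the series were given at other doses, ICG-001 at 10 µM and YB-0158 at 0.3 µM, and share the DMSO libraries, so their log2 fold changes are set beside those of CWP232228 without a comparison. For SLC6A9 the values were 3.50 with CWP232228, 4.88 with ICG-001 and 4.82 with YB-0158. CEACAM6 had 2.50, 3.51 and 3.37 in that order. AXIN2 had 0.54, 0.79 and 0.88, NOTUM -1.88, -2.33 and -2.30, and BIRC5 -0.56, -1.13 and -1.15. NDUFA4L2 had -3.56, -3.41 and -3.55. MKI67 was at 0.69, 0.07 and 0.05, and was not called with ICG-001 or YB-0158.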

How the data were processed

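RNA was measured in HT29 cells in 8 libraries (TruSeq RNA v2, not strand-marking, RNA quality number at least 8, per the labels' protocols). Groups and replicate numbers came from the sample titles. Tools listed in the submitters' processing notes are fastp, DESeq2 and Salmon 1.3.0, and the build is GRCh38; roles are not stated there. Per the file headers, the deposited files give Salmon's estimated counts per transcript, with TPM and effective length. The authors' deposited table for this comparison gives a mean signal of normalized counts, a log2 fold change, a p-value and FPKM per gene, and TPM and FPKM entered no test. Sources used here give neither the transcriptome release nor any filter of the authors.

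Estimated counts of 228754 transcripts were matched to GENCODE release 29 (89.5% matched; unmatched transcripts took 1.54% to 1.85% of the reads), summed per gene and rounded. Genes were tested in edgeR 4.0.16 (R 4.3.3; TMM scaling, filterByExpr, robust quasi-likelihood test) in 1 model of 8 libraries and 4 groups with 4 residual degrees of freedom. Levels are CPM and fold changes log2 with their SE. With 2 libraries per group a log2 difference has little replication, and floors of 3 counts cover counting error only. The correction for GC content and length was a loess offset per library (span 0.3). Transcript usage was tested with diffSpliceDGE (Simes p per gene). Both tests and the correction were run on simulated counts. With a GC trend put in the treated libraries, edgeR called 11.9% of 15933 unchanged genes uncorrected and 0.088% corrected. Without that trend it called 0.063% of 15960 unchanged genes. The usage test recovered 78.5% of 200 genes whose 2 largest transcripts were exchanged, and called 0.10% of 11002 unchanged genes. A wider spread in DMSO alone and Salmon's division of reads were not tested.

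Members and gene lists were chosen with earlier results of these data known. The rule for named genes took the 12 largest rises and falls among called genes (mean log2 CPM over the 8 libraries of 3 or more, an ordinary symbol, no overlap of the libraries, summed reads at least 50% of the authors' deposited mean). It added the 3 members with the smallest p of each list with at least 5 tested members, KHDRBS1, CREBBP, CTNNB1, MYC, BIRC5, CD44, LGR5, PROM1 and AXIN2, and 6 genes for transcript usage. Other genes were named after their values were seen. Alternatives were RLE size factors, no filter, the 4 libraries alone, DESeq2 1.42.0, the effective length offset, the GC correction, a replicate block and leaving out each library. Some genes and lists under these rules are not reported here.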

Additional observations from a re-analysis of the deposited data

How the results depend on the processing

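Genes called higher and lower numbered 3555 and 3487. With only the 4 libraries they were 1820 and 2324, with the offset for effective transcript length 1453 and 1945. The correction for GC content and length called 2010 higher, and 1857 with the replicate block added. Leaving out single libraries gave 1235 to 4701 higher, 1512 to 4097 lower and 240 to 678 genes for transcript usage. The cause of these differences was not tested, beyond the fewer samples in the fits that leave libraries out. RLE size factors, DESeq2 and no filter stayed within 1.5 times of the counts. The labels only number the replicates, so the numbers were not taken to pair the groups. Deviations of DMSO and CWP232228 libraries with the same number had a correlation of -0.31, and of -0.10 after the GC correction. The correlations were 0.33 between CWP232228 and ICG-001, 0.21 between CWP232228 and YB-0158 and 0.48 between ICG-001 and YB-0158. After the GC correction they were 0.006, -0.043 and 0.23 in that order. The replicate block gave 3148 higher and 3165 lower. A block with the DMSO numbers crossed, chosen after seeing the data, gave 4181 and 3782.

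Of 151 named genes, 114 kept direction and side of the threshold after the GC correction, 29 lost the call and 8 turned. The values that turned under it were MKI67 -0.0559, DVL1 0.0441, JUND 0.108, TAF1D -0.0183, KHDRBS1 -0.142, CTNNB1 -0.172, CD44 -0.0967 and LGR5 -0.443. With the replicate block and the GC correction they were MKI67 -0.0533, DVL1 0.0442, JUND 0.108, TAF1D -0.017, KHDRBS1 -0.142, CTNNB1 -0.171, CD44 -0.0971 and LGR5 -0.443. With the offset for effective length POLR1A was -0.021, BOK 0.441, CTNNB1 -0.0623 and CD44 -0.0096. Without single libraries KHDRBS1 ranged from -0.0634 to 0.150, CD44 from -0.0395 to 0.0746 and LGR5 from -0.0669 to 0.160. The cause was not tested. A depth of 29071547 to 31022125 reads puts the floor of 3 counts at 0.0976 to 0.106 CPM over the 4 libraries, which limits genes such as FGF21.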
